A study of Drosophila melanogaster with 6 samples.

Results

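The 7 genes described here are jhamt, Hmgs and Fpps, which encode enzymes on the route to juvenile hormone, Met and gce, which encode its receptors, Kr-h1, the main early target of those receptors, and Akh, which encodes adipokinetic hormone. They were chosen by symbol, for their roles, and are 7 of the 17807 genes in the deposited tables. All 7 symbols matched a single table row by FlyBase gene ID. Polyadenylated RNA was measured in 6 libraries, each from whole lymph glands dissected from third-instar Drosophila melanogaster. These glands are a site of blood cell formation in the larva and lie along its heart tube, the dorsal vessel. All 6 libraries carry the label wild-type, on a background given as BL-30140 crossed to w1118, so both parental stocks are shared by every library. The larvae were raised at 25 degrees on semi-defined medium. There are 3 libraries from one experimenter, called set B, and 3 from the other, called set A, with replicate numbers taken from the labels. The labels give no treatment, sex or exact age within the instar, and do not say how many glands were pooled. Nor do they say whether replicates are separate dissections, so the p-values below measure the spread between these libraries, which may in part be technical.

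Juvenile hormone is made in the corpus allatum and adipokinetic hormone in the corpora cardiaca. In fly larvae both sit with the prothoracic gland, the source of ecdysone, in the ring gland, an endocrine organ on the dorsal vessel next to the lymph gland. Juvenile hormone is built from acetyl-CoA through the mevalonate pathway, which every cell uses for other products, and the last steps are particular to the corpus allatum. The hormone binds Met or Gce, bHLH-PAS proteins that work with the coactivator Taiman and switch on Kr-h1, a zinc finger factor that holds back metamorphosis. Adipokinetic hormone is the fly counterpart of glucagon and acts on the fat body through its receptor AkhR to release stored lipid and sugar. In RNA from a whole organ, fewer cells of a type and less RNA per cell cannot be told apart.

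Several libraries stood apart in genes of other tissues, and this touches the results below. Total expected counts ranged from 18689689 to 26003822 per library. The summed TPM of 11 prothoracic gland genes was 1739, 3236 and 1996 in set B replicates 1, 2 and 3, against 3553, 1220 and 1051 in set A replicates 1, 2 and 3. TPM is a relative transcript level corrected for transcript length, with the same sum in every library. Set A replicate 1 and set B replicate 2 therefore had the highest level of these genes and set A replicates 2 and 3 the lowest. Whether the amount of ring gland tissue differed was not tested. Set B replicate 3 was highest in muscle genes, set B replicate 2 in salivary gland genes, set B replicate 1 in brain genes and set A replicate 3 in fat body genes. Hemocyte genes defined the organ in all 6 libraries, with 12 of 12 at a TPM of at least 1 throughout, among them the prophenoloxidase genes PPO1 and PPO2, both at 3867 TPM or more, and the progenitor gene Ance at 2563 TPM or more. The summed TPM of these 12 genes ranged from 19155 in set A replicate 1 to 28250 in set A replicate 3.

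All 7 genes were found at a TPM of at least 1 in all 6 libraries. In order of mean TPM they were Akh at 134 ± 43.2, Fpps at 61.1 ± 8.66, Hmgs at 54.5 ± 4.53, gce at 40.1 ± 6.83, Kr-h1 at 29.99 ± 5.41, jhamt at 18.0 ± 8.01 and Met at 5.84 ± 0.583 TPM (SD, n = 6). Of 7371 genes detected in every library, 89.4% had a lower mean TPM than Akh, 41.4% a lower one than jhamt and 11.7% a lower one than Met. Neighbours in this order were compared library by library with a two-sided exact sign-flip permutation test on log2(TPM + 1), adjusted over the 6 neighbouring pairs. None of the 6 pairs passed an adjusted p of 0.05. With 6 libraries 1 pair of 6 cannot pass by itself, and the order was taken from the same libraries, so this does not decide the order. The pairs Akh and Fpps, Hmgs and gce, and jhamt and Met kept their order in 6 of 6 libraries, with an exact p of 0.03125, the smallest that 6 libraries can give, and an adjusted p of 0.0625. Of these, the ranges of Akh and Fpps and of jhamt and Met did not overlap. Fpps exceeded Hmgs in 5 of 6 libraries (adjusted exact p = 0.188), Kr-h1 exceeded jhamt in 5 of 6 (adjusted exact p = 0.0938) and gce exceeded Kr-h1 in 4 of 6 (adjusted exact p = 0.15). The order within these pairs thus did not hold in every library.

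**Figure D1:**
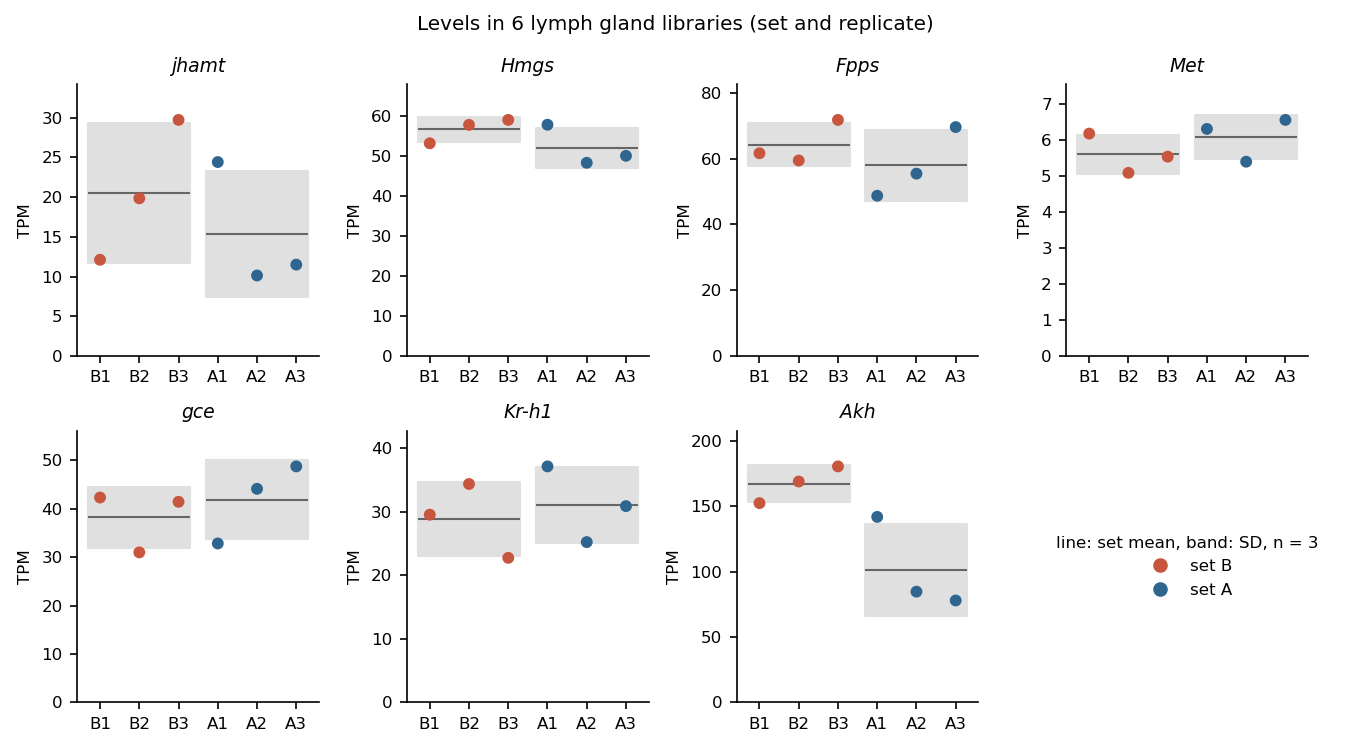
TPM of each of the 7 genes (vertical axes, from 0) in each library (horizontal axis, B1 to B3 for set B and A1 to A3 for set A), with the mean of each set as a line and its SD as a band (n = 3 each). The 3 set B libraries of Akh, at 152 to 180 TPM, lie above the 3 set A libraries at 77.9 to 142 TPM, and in the other 6 genes the sets overlap.

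jhamt encodes juvenile hormone acid methyltransferase, which adds the methyl ester at the end of the pathway and is used as the marker of the corpus allatum. The gene (FBgn0028841) lies on chromosome 2L at 16365903 to 16367039 on the plus strand of BDGP6.54, with no other gene over it. It was at 12.1, 19.9 and 29.7 TPM in set B replicates 1, 2 and 3, against 24.4, 10.1 and 11.5 TPM in set A replicates 1, 2 and 3. The libraries split into 3 high values (set B replicates 2 and 3 and set A replicate 1) and 3 low ones, and each set held both kinds. These levels rested on 179, 277 and 561 counts in set B and 482, 175 and 167 counts in set A. The exact Poisson 95% interval was 27.3 to 32.3 TPM for the highest library and 8.68 to 11.7 TPM for the lowest, and such intervals cover counting error only. The highest library was 2.93 times the lowest. The coefficient of variation was 44.6%, against 5.71% from counting alone, and 4.69% of detected genes had a higher one.

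Hmgs encodes hydroxymethylglutaryl-CoA synthase, an early enzyme of the mevalonate pathway. The gene (FBgn0010611) lies on 2R at 16336090 to 16341242 on the plus strand. It was at 53.3, 57.9 and 59.1 TPM in set B replicates 1, 2 and 3, against 57.9, 48.4 and 50.1 TPM in set A. The sets overlapped, with set A replicate 1 at the level of set B replicate 2, and the highest library was 1.22 times the lowest. The exons of Hmgs share 148 nucleotides, 5.30% of their length, with Vha44 on the opposite strand. Vha44 was at 118 to 148 TPM, and the share of Hmgs counts this could touch is unknown, since the use of strand in counting is not given in the sources used here.

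Fpps encodes farnesyl pyrophosphate synthase, whose product is the branch point to prenyl groups, dolichol and juvenile hormone. The gene (FBgn0025373) lies on 2R at 11305511 to 11307528 on the minus strand, and 97 nucleotides of its exons are shared with CG7741 on the opposite strand, a gene at 13.6 to 17.0 TPM. Fpps was at 61.7, 59.5 and 71.8 TPM in set B replicates 1, 2 and 3, against 48.7, 55.5 and 69.6 TPM in set A. Its lowest value fell in set A replicate 1, where jhamt was second highest. Relative to Fpps, jhamt was at 196, 334 and 414 TPM per 1000 Fpps TPM in set B, against 501, 183 and 165 in set A. The ratio thus varied 3.03-fold between libraries, as widely as jhamt itself.

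Genes on and around the route were examined as a list of 11, with jhamt, Hmgs and Fpps among them. Every one of the 11 had a TPM of at least 1 in all 6 libraries. Besides Fpps and Hmgs, the highest was qm, at 53.8 ± 6.21 TPM (SD, n = 6). It encodes geranylgeranyl pyrophosphate synthase, on the branch to prenyl groups and not on that to juvenile hormone. Along the mevalonate pathway, Acat2, which joins acetyl-CoA units, had a coefficient of variation of 5.30%, the mevalonate kinase gene Mvk 6.22%, the phosphomevalonate kinase gene Pmvk 16.2%, the decarboxylase gene Mvd 9.64% and the isomerase gene Idi 6.06%. The median over detected genes was 10.1%. Only jhamt and Cyp6g2, a cytochrome P450 gene listed here for its expression in the corpus allatum, exceeded 30% in this list. Cyp6g2 was at 17.7, 24.3 and 27.4 TPM in set B replicates 1, 2 and 3, against 30.4, 15.6 and 11.7 TPM in set A. Its 3 high libraries were the 3 that were high in jhamt. The ratio of Cyp6g2 to jhamt stayed between 0.921 and 1.54, a smaller range than that of either gene. Cyp6g2 shares exon sequence with Cyp6g1 on the opposite strand, as do Mvk, Pmvk, Mvd, Idi and qm with other genes, so part of these counts is uncertain.

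**Figure D2:**
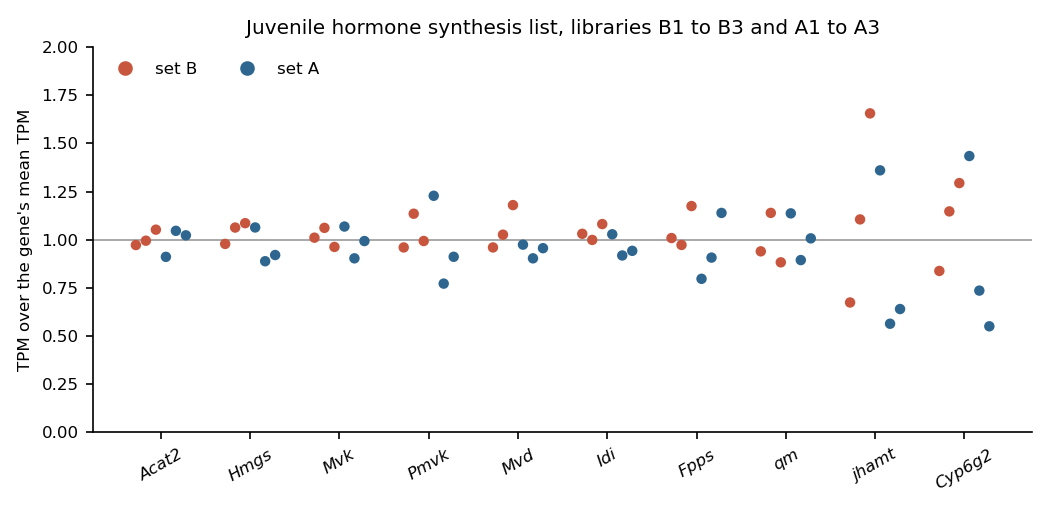
TPM of 10 genes of the juvenile hormone synthesis list divided by the gene's own mean over 6 libraries (vertical axis, no unit), with set B points left of set A points for each gene (horizontal axis). The points of jhamt and Cyp6g2, with coefficients of variation of 44.6% and 34.5%, spread more widely than those of the other 8 genes shown, at 5.30% to 16.2%.

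Genes of juvenile hormone breakdown and binding made up a list of 7. The epoxide hydrolase gene Jheh2 was the highest, at 347 ± 18.9 TPM, followed by Jheh1 at 85.1 ± 14.0 TPM, while Jheh3 was at 5.99 ± 1.99 TPM (SD, n = 6). These 3 genes share exon sequence with 1 antisense RNA gene. The esterase gene Jhe and its duplicate Jhedup had 0 counts in all 6 libraries. A count of 0 allows up to 3 counts, which for Jhe corresponds to at most 0.101 TPM in the least deep library. JhI-26, named for induction by juvenile hormone, was at 60.8, 29.0 and 60.8 TPM in set B replicates 1, 2 and 3, against 29.3, 70.6 and 66.4 TPM in set A. Its low values were in set B replicate 2 and set A replicate 1, the libraries with the highest level of the prothoracic gland list. This was not shared by the list. Jheh1 was highest in these libraries, at 107 and 98.2 TPM, and JhI-21 was lowest in set B replicate 3, at 21.7 TPM, with 28.2 TPM in set B replicate 2. JhI-26 shares exon sequence with an antisense RNA gene, and JhI-21 with PLCXD on the opposite strand.

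The receptor genes differed in level. Met (Methoprene-tolerant, FBgn0002723) lies on the X chromosome at 11616124 to 11621280 on the plus strand, with no other gene over it. It was at 6.17, 5.08 and 5.53 TPM in set B replicates 1, 2 and 3, against 6.30, 5.39 and 6.55 TPM in set A. The sets overlapped and the highest library was 1.29 times the lowest. Its paralog gce (germ cell-expressed, FBgn0261703) lies on the X chromosome at 15297766 to 15319074 on the plus strand. It was at 42.3, 31.0 and 41.4 TPM in set B, against 32.8, 44.1 and 48.8 TPM in set A. Its low values were those of set B replicate 2 and set A replicate 1. The TPM of gce was 5.21 to 8.19 times that of Met within libraries (6.88 ± 1.08, SD, n = 6), and higher in 6 of 6. The posterior SD of the count was 0 for both genes in every library, so RSEM split no reads between the paralogs. A pair of antisense RNA genes overlap exons of gce, one of them over 37.8% of their length, and these were at 7.88 TPM or less.

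Partners and targets of the receptors were examined as a list of 11 that holds Met, gce and Kr-h1. The coactivator gene tai was at 22.3 ± 1.63 TPM and usp, which encodes the partner of the ecdysone receptor, at 27.7 ± 2.80 TPM (SD, n = 6). The highest genes of the list were Hsp83, Chd64 and Fkbp39. Hsp83, the Hsp90 chaperone gene, was at 1116, 966 and 1414 TPM in set B replicates 1, 2 and 3, against 295, 1209 and 1390 TPM in set A, so set A replicate 1 lay below the rest. Chd64 was at 869, 514 and 1059 TPM in set B, against 564, 1031 and 1216 TPM in set A. Fkbp39 was at 287, 224 and 340 TPM in set B, against 237, 302 and 307 TPM in set A. Chd64 and Fkbp39, both described as partners of Met in flies, were lowest in the same libraries as gce, set B replicate 2 and set A replicate 1.

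Kr-h1 (Krüppel homolog 1, FBgn0266450) lies on 2L at 6082603 to 6096498 on the plus strand. It was at 29.5, 34.4 and 22.8 TPM in set B replicates 1, 2 and 3, against 37.1, 25.2 and 30.9 TPM in set A. Set A replicate 1 and set B replicate 2 were highest, and set B replicate 3, where jhamt peaked, was lowest. CG45075 shares 4168 nucleotides of exon with Kr-h1 on the same strand. RSEM gave CG45075 at most 18.2 counts per library, and the posterior SD of the Kr-h1 count was at most 0.494% of it. The pupal determinant br, which Kr-h1 restrains in other insects and in flies, was at 123, 174 and 92.4 TPM in set B, against 229, 88.1 and 99.9 TPM in set A. The adult specifier Eip93F, a further gene held down by Kr-h1, was at 1.05, 2.03 and 0.83 TPM in set B, against 4.56, 0.27 and 0.16 TPM in set A. Both were highest in the libraries in which Kr-h1 was highest. br shares exon sequence with Mur2B on the opposite strand, so part of its counts is uncertain.

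Akh (FBgn0004552) lies on 3L at 4141467 to 4142070 on the plus strand, with no other gene over it, and the tables hold 1 transcript of 536 nucleotides. It was at 152, 169 and 180 TPM in set B replicates 1, 2 and 3, against 142, 84.7 and 77.9 TPM in set A. Every set B library lay above every set A library, and set A replicate 1 was nearer to set B than to the other set A libraries. The counts were 943, 1010 and 1432 in set B, against 1169, 617 and 479 in set A. The exact Poisson 95% interval was 143 to 162 TPM in set B replicate 1 and 134 to 150.1 TPM in set A replicate 1, so counting error alone covers the gap between these libraries. The ratio of Akh to jhamt was 12.6, 8.50 and 6.07 in set B, against 5.81, 8.36 and 6.77 in set A, a range of 2.17-fold. The marker genes of the corpora cardiaca and corpus allatum thus did not keep a fixed proportion.

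Other genes of the corpora cardiaca and of Akh processing formed a list of 8. The processing enzyme genes Phm, which with the lyases makes the amide end of peptide hormones, and svr, a carboxypeptidase gene, were at 142 ± 4.40 and 97.5 ± 23.5 TPM (SD, n = 6). Both overlap genes on the opposite strand. The lyase genes Pal1 and Pal2, which also share exon sequence with genes on the opposite strand, were at 35.9 ± 8.16 and 6.34 ± 1.63 TPM. The prohormone convertase gene amon had 106, 55 and 62 counts in set B replicates 1, 2 and 3, against 43, 29 and 18 counts in set A, so set B lay above set A without overlap. In TPM, amon was at 1.61 or less in every library. Its highest library was set B replicate 1, which was also the highest in the list of neurons, glia and brain endocrine cells, with a summed 62.3 TPM against 3 to 5.34 TPM in the other libraries. The part of that tissue in the level of amon was not tested. Phm lay the other way without overlap, at 141, 142 and 136 TPM in set B replicates 1, 2 and 3, against 150.02, 143 and 142.21 TPM in set A. Of all genes tested, 6.11% had sets that did not overlap in TPM. Lst, the gene of limostatin, a peptide made by Akh-producing cells in adult flies, was at 47.2, 20.7 and 38.3 TPM in set B, against 14.2, 53.5 and 73.0 TPM in set A. Its highest libraries were set A replicates 2 and 3, where Akh was lowest. gl, a transcription factor gene of photoreceptors and of the developing corpora cardiaca, reached 191 counts in set B replicate 2, with 2 to 7 counts in every other library.

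The response side of adipokinetic hormone was near the limit of detection at its receptor. AkhR had 1, 0 and 0 counts in set B replicates 1, 2 and 3, against 1, 0 and 9 counts in set A. The 9 counts fell in set A replicate 3, the library with the highest fat body level. The summed TPM of 6 fat body genes was 721 there, against 7.04 to 22.5 in the others. A count of 0 allows up to 0.0840 TPM of AkhR in set B replicate 2. Of the other 4 genes of this list, the gluconeogenic gene Pepck1 was at 10.9 ± 3.23 TPM, plin1 (Lsd-1), which encodes a lipid droplet protein, at 8.67 ± 1.90 TPM and the lipase gene bmm at 5.71 ± 0.991 TPM (SD, n = 6). The glucosidase gene tobi stayed at 0.35 TPM or less.

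The comparison of set B with set A asks how far libraries of the same label differ between experimenters, and in it 0 of the 7 genes passed an adjusted p of 0.05. The test was edgeR's quasi-likelihood test over 8491 genes with Benjamini-Hochberg adjustment, and it called 0% of all genes tested. At an unadjusted p under 0.05 it held 353 genes, which is 4.16%, and 1 of the 7. That gene was Akh, with a log2 change of 0.71 (SE 0.24), an edgeR p of 0.0244 and an edgeR adjusted p of 0.9997, higher in 3 of 3 set B libraries than in any set A library. Mean TPM of Akh was 167 ± 14.1 in set B and 101 ± 35.1 in set A (SD, n = 3 each). Sets that did not overlap in TPM with set B higher were found for 4.53% of genes tested and with set B lower for 1.58%, together 6.11%, and for 1 of the 7 genes, Akh. On TMM-scaled CPM, counts relative to the effective library size, these shares were 4.17% and 3.23%, together 7.4%, so the split between directions depends on the scaling, and Akh did not overlap on either scale. DESeq2 called 0.261% of genes, and Akh was not among them, with a DESeq2 adjusted p of 0.438.

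The other 6 genes had smaller log2 changes or wider errors. jhamt had a log2 change of 0.42 (SE 0.46), with means of 20.6 ± 8.83 TPM in set B and 15.4 ± 7.88 TPM in set A (SD, n = 3 each). Without set A replicate 1 its log2 change was 0.92, and without set B replicate 3 it was 0.01, so single libraries decide its size. Fpps was at 0.13 (SE 0.16), Hmgs at 0.11 (SE 0.093), Met at -0.07 (SE 0.11), Kr-h1 at -0.13 (SE 0.17) and gce at -0.15 (SE 0.20). Single libraries decide these sizes too, since Fpps was at 0.01 without set B replicate 3 or without set A replicate 1, and gce at -0.01 without set B replicate 2. Without set A replicate 1 the value of Kr-h1 was 0.0024, and without set A replicate 3 that of Met was 0.012, both with the sign turned. No gene of the 7 had an edgeR adjusted p under 0.6 in any fit that left out 1 library.

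**Figure D3:**
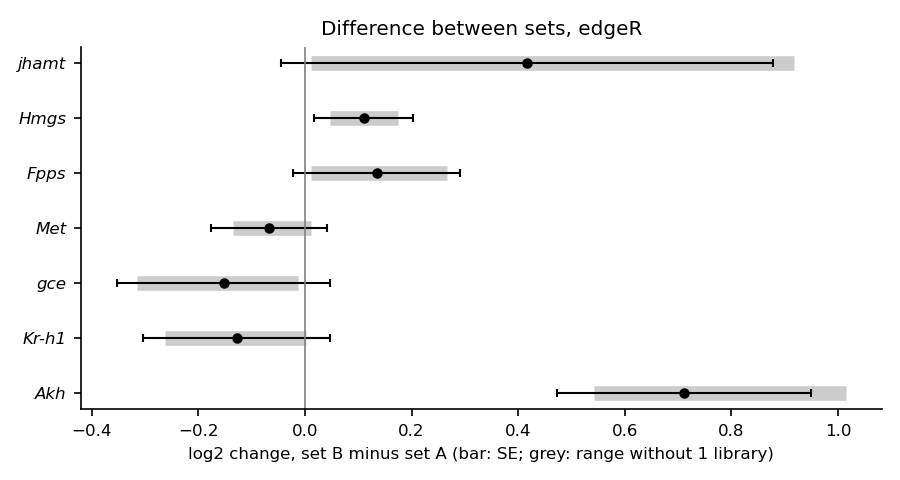
Log2 change, set B minus set A, of each of the 7 genes (horizontal axis) from edgeR over 6 libraries, with the SE as a bar and, in grey, the range of the value when 1 library is left out. Akh stays between 0.54 and 1.01, while jhamt ranges from 0.01 to 0.92.

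The lists around these genes were read in the same fit, in which the median log2 change of all 8491 genes was -0.004 and 48.4% of genes were higher in set B. edgeR called 0 genes in either direction in each of the 12 lists at an adjusted p of 0.05, and DESeq2 called 0 of the 74 listed genes to which it gave an adjusted p, with 23 of the 97 given none. In the synthesis list, 9 of 11 genes had a positive log2 change, with a median of 0.09. In the breakdown list 3 of 5 tested genes did, with a median of 0.02, and in the list of receptor partners and targets 2 of 11, with a median of -0.11. Without 1 library at a time, the median ran from 0.03 to 0.13 for synthesis, from -0.03 to 0.09 for breakdown and from -0.10 to -0.0015 for receptor partners and targets, the last without set B replicate 2. In the corpora cardiaca list 4 of 7 tested genes had a positive log2 change, with a median of 0.02, and in the Akh response list 1 of 3, with a median of -0.14. The corpora cardiaca median ran from -0.09 without set B replicate 2 to 0.29 without set A replicate 1, and the Akh response median from -0.23 without set A replicate 2 to 0.0082 without set A replicate 3. The prothoracic gland list had 9 of 10, with a median of 0.23 that ran from 0.01 without set A replicate 2 to 0.96 without set A replicate 1. The median was -0.22 for hemocyte genes, 0.43 for heart genes, 1.14 for muscle, -4.73 for fat body, 5.24 for salivary gland and 2.16 for neurons, glia and brain endocrine cells, and the heart value became 0.06 without set B replicate 2, the hemocyte value -0.11 without set A replicate 3, the muscle value 0.61 without set B replicate 3, the fat body value -0.18 without set A replicate 3, the salivary gland value 0.55 without set B replicate 2 and the neural value 0.43 without set B replicate 1.

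Because the corpus allatum, corpora cardiaca and prothoracic gland share the ring gland, each of the 7 genes was set against the summed level of the 11 prothoracic gland genes over the 6 libraries. Its highest genes were spok, phm and sad, 3 ecdysone synthesis genes at 619, 584 and 466 TPM on average. The Pearson r of log2 values was 0.85 for Hmgs, 0.77 for Akh, 0.75 for jhamt, 0.56 for Kr-h1, -0.27 for Met, -0.51 for Fpps and -0.96 for gce. With exact permutation p-values adjusted over the 7 genes, 1 of 7 passed 0.05. That was gce, with an exact p of 0.00417 and an adjusted exact p of 0.0292. Its Spearman rho was -0.94, with an adjusted exact p of 0.117. gce was thus lower in libraries with a higher level of the prothoracic gland list. The share of all genes that would pass the same test was not computed. Whether the relation is particular to gce is therefore not known. JhI-26, Chd64 and Fkbp39 were also lowest in set B replicate 2 and set A replicate 1.

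The relation of gce held its direction but not always its call. Without the 2 libraries farthest from the median, set A replicates 1 and 3, r was -0.93 over 4 libraries. With the median of the prothoracic gland list in place of its sum, r was -0.84, with an adjusted exact p of 0.117. Leaving out 1 library at a time gave r between -0.98 and -0.94, but 5 libraries cannot give an adjusted exact p under 0.05 for 1 gene of 7. The summed hemocyte level was, like gce, lowest in set B replicate 2 and set A replicate 1. It was at 22528, 19246 and 22727 TPM in set B replicates 1, 2 and 3, against 19155, 24687 and 28250 TPM in set A. The highest genes of that list, PPO1 and PPO2, and also Hml were lowest in these libraries. The list was not uniform, since eater, srp and NimC1 were highest in set A replicate 1, at 738, 215 and 161 TPM. The part of hemocyte content in the result was not tested. The permutations over all 6 libraries took no account of the set. With both measures centred on their set means, r was -0.96 for gce, with an exact p of 0.0278 from permutation within sets and an adjusted exact p of 0.194. The 36 orders within sets give no smaller p, so 1 gene of 7 cannot pass on them. Centred in the same way, r was 0.91 for Akh, 0.86 for Hmgs, 0.71 for jhamt, 0.69 for Kr-h1, -0.14 for Met and -0.76 for Fpps, and 0 of the 7 genes passed.

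jhamt and Akh did not pass the same test. For Akh, the exact p was 0.106 and the adjusted exact p 0.209, with a Spearman rho of 0.60 (adjusted exact p = 0.423). For jhamt the exact p was 0.119 and the adjusted exact p 0.209, with a Spearman rho of 0.77 (adjusted exact p = 0.24). Without the 2 farthest libraries r was 0.78 for Akh, 0.62 for jhamt and 0.82 for Hmgs. Per 1000 TPM of the prothoracic gland list, jhamt was at 6.97, 6.13 and 14.9 TPM in set B replicates 1, 2 and 3, against 6.87, 8.31 and 10.9 TPM in set A. Akh was at 87.6, 52.2 and 90.3 TPM per 1000 in set B, against 39.9, 69.4 and 74.2 in set A. The prothoracic gland level itself varied 3.38-fold, and the ratios to it varied 2.43-fold for jhamt and 2.26-fold for Akh. Set B replicate 3, which had the highest level of both hormone genes with a middle level of the prothoracic gland list, was also the library with the highest muscle level, at a summed TPM of 1643 against 299 to 737 elsewhere, and the part of this in the result was not tested. In set B replicate 1 the insulin gene Ilp2 was at 22.1 TPM and at 0 in all 5 others, and that library had the highest ratio of Akh to jhamt. Whether brain tissue takes part in that ratio was not tested.

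**Figure D4:**
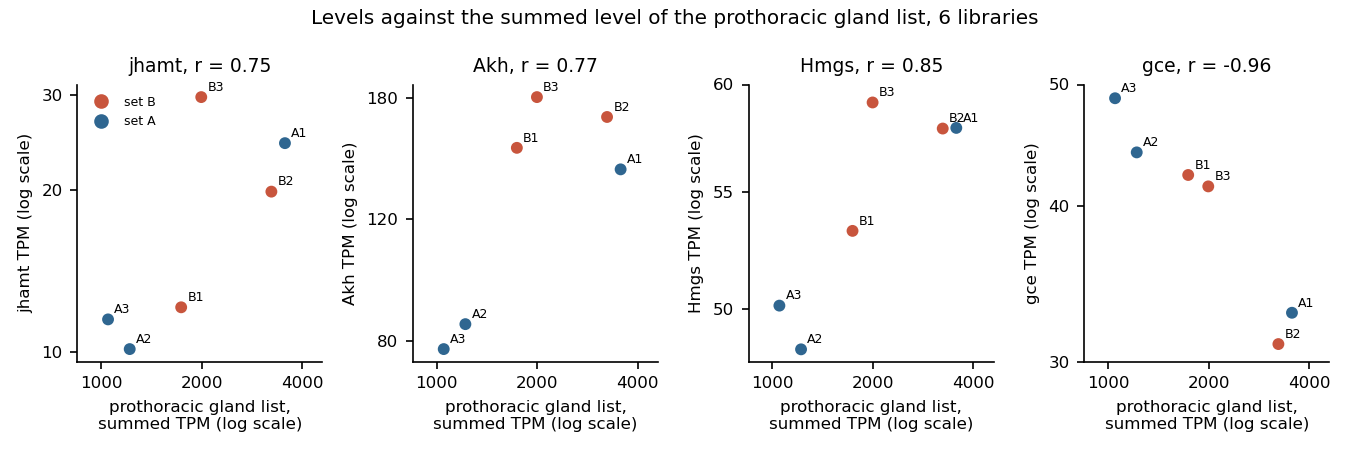
TPM of jhamt, Akh, Hmgs and gce (vertical axes, log scale) against the summed TPM of 11 prothoracic gland genes (horizontal axes, log scale) in the 6 libraries, labelled by set and replicate, with Pearson r of the log2 values. gce falls as the prothoracic gland level rises (r = -0.96), and set B replicate 3 lies highest for jhamt and for Akh.

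Genes whose pattern was most like that of jhamt or Akh were ranked by Pearson r of log2(TPM + 1) over the 6 libraries, among 7351 other genes. With so few libraries high values of r are common, so the ranks are a description. The gene most like jhamt was Ldsdh1, a short-chain dehydrogenase gene named for lipid droplets, with r = 0.997. Ldsdh1 was at 4.01, 6.40 and 8.49 TPM in set B replicates 1, 2 and 3, against 7.55, 3.33 and 3.60 TPM in set A, and its coefficient of variation of 39.8% was close to that of jhamt. The next were mRpL53, CG2611, Arf4 and CG11444, with r between 0.962 and 0.988 but coefficients of variation of 5.71% to 9.08%. Hmgs came 13th with r = 0.94, Cyp6g2 48th with r = 0.90 and Akh 249th with r = 0.77, while Kr-h1 came 3372nd with r = 0.057.

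The genes most like Akh were CG1636, CG3038, CG14075, peg and Klf15, with r between 0.969 and 0.989. Of these, CG14075 had both a level and a spread close to those of Akh. It was at 172, 194 and 197 TPM in set B, against 135, 85.6 and 86.8 TPM in set A, with a coefficient of variation of 34.9% against 32.2% for Akh. Hmgs came 36th with r = 0.90, Cyp6g2 133rd with r = 0.83 and spok 208th with r = 0.80.

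Transcript usage was read from the gene length in the tables, which RSEM gives as the mean over a gene's transcripts weighted by their abundance. For a gene with a pair of transcripts of known length this fixes the share of each, and the lengths of Ensembl release 115 were used. The tables give no error for these shares. Met-RA and Met-RB have the same coding sequence of 2148 nucleotides and the same start. Met-RB, of 5088 nucleotides, runs further at the 3' end than Met-RA, of 3756 nucleotides. Met-RB made up 88.5%, 89.6% and 81.2% of Met transcripts in set B replicates 1, 2 and 3, against 48.7%, 71.8% and 86.6% in set A. Set A replicate 1 had the lowest share, although its Met level of 6.30 TPM was within the range of the others.

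jhamt-RA and jhamt-RB also share their coding sequence, of 891 nucleotides, and differ at the 3' end, with lengths of 1010 and 1073 nucleotides. jhamt-RB made up 36.9%, 21.6% and 33.6% in set B, against 46.5%, 28.8% and 18.6% in set A. The stretch that separates the 2 transcripts is short, so these shares rest on few reads. Kr-h1-RA, the longer transcript of Kr-h1, starts further upstream than Kr-h1-RB and made up 99.4% to 99.9% in all 6 libraries. Kr-h1-RB, whose coding sequence is longer (2535 against 2373 nucleotides), made up the rest. CG45075 shares 4168 nucleotides of exon with Kr-h1, as many as Kr-h1-RB is long. It was given at most 18.2 counts per library, so the small share of Kr-h1-RB is uncertain. For gce and Hmgs, with 4 and 6 transcripts, the weighted length does not fix the shares. The weighted length of gce stayed between 5121 and 5163 nucleotides and that of Hmgs between 1930 and 1946 nucleotides.

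**Figure D5:**
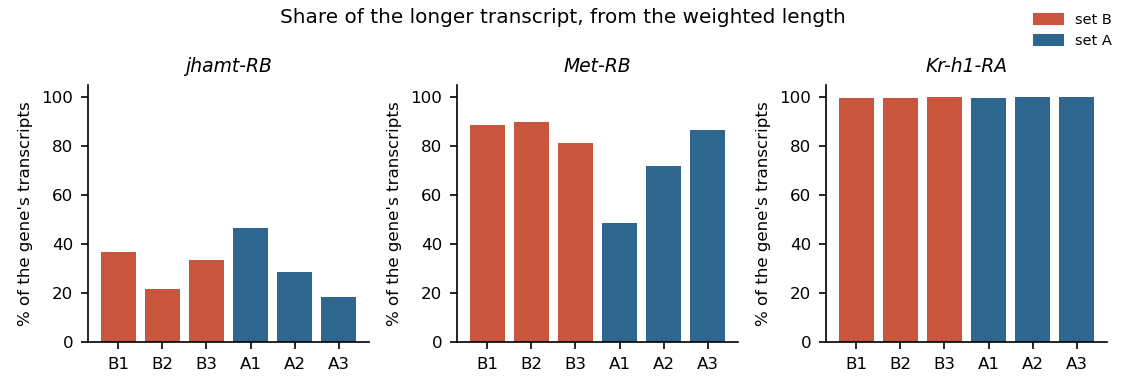
Share of the longer transcript (vertical axes, % of the gene's transcripts, from 0) for jhamt, Met and Kr-h1 in each library (horizontal axes, B1 to B3 and A1 to A3), computed from the weighted gene length. Met-RB is at 48.7% in set A replicate 1 and between 71.8% and 89.6% in the other 5 libraries, and Kr-h1-RA is at 99.4% or more in all 6.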

How the data were processed

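Polyadenylated RNA of 6 whole lymph gland samples was sequenced from stranded libraries, per the labels' protocols. CASAVA 1.8.2, Trimmomatic 0.35, STAR 2.7.1a, RSEM 1.2.28 and build BDGP6 are named in the submitters' processing notes, without settings. The deposited expected counts are RSEM estimates of reads per gene and need not be whole. The deposited TPM are corrected for effective length, per the file headers, and the deposited FPKM were not used. Strand use in counting is not given in the sources used here. Among further named list genes, sad, Lsp2 and elav share exon sequence with genes on the opposite strand. Other deposited columns used were lengths and posterior SDs of counts.

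Of 17807 gene IDs, 17710 were matched to symbols by ID and 56 by transcript. Positions are those of Ensembl release 115. Of 10341 genes with 1 transcript, 10316 had the same length there within 0.5 nucleotides.

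Expected counts were rounded and tested with edgeR 4.0.16 (filterByExpr, TMM, quasi-likelihood, R 4.3.3). DESeq2 1.42.0 was an alternative. On simulated counts for 8412 genes, edgeR called 82 of 100 genes changed 4-fold, 46 of 100 changed 2-fold and 8 unchanged genes. Correlations used a pseudocount of 1, with Python 3.11.15 and scipy 1.17.1. Every pair of libraries differed beyond sampling noise. Members and lists were chosen with earlier results of these data known. Genes named beside the 7 are those past the test, up to 3 of each list with the highest mean TPM and the 5 most like jhamt or Akh. One gene of the synthesis list is not reported here. Other list genes were named after their values were seen, as were the ranks of Hmgs, Cyp6g2, spok and Akh.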

Additional observations from a re-analysis of the deposited data

Results flagged for a closer look

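Of 61 values over the 6 libraries (the 7 genes, their ratios and transcript shares, list levels and named genes), 15 had a single library standing apart by more than Dixon's 95% critical value. Chance alone gives about 1 in 20, or 3.05 here, and the values are not independent. None of the 7 genes, their ratios or their transcript shares was among the 15.

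Set A replicate 3 stood apart for fat body genes, with a summed TPM of 721 against 7.04 to 22.5 elsewhere, and for Lsp1beta at 209.5, Lsp1gamma at 196.2 and Lsp2 at 145 TPM. In the same library plin1, from the Akh response list, was at 12.5 TPM, against 7.47 to 8.35 TPM elsewhere. Set B replicate 2 stood apart for salivary gland genes, with a summed TPM of 5332 against 17.6 to 83.1, and for Sgs7 at 2958, Sgs3 at 1059 and Sgs8 at 719 TPM. Set B replicate 3 stood apart for muscle, at 1643 against 299 to 737, and for Act57B at 781 TPM. Set B replicate 1 stood apart for neurons, glia and brain endocrine cells, with a summed TPM of 62.3 against 3 to 5.34, and for Ilp2 at 22.1, elav at 13.5 and Ilp5 at 9.63 TPM. The part of these tissues in the levels of the 7 genes was not tested.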

How the results depend on the processing

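The count of 0 genes called between sets stayed at 0 with RLE normalization, without the expression filter, with the replicate block and without each library in turn (0 to 0), and was 22 with DESeq2, none of them among the 7 genes. The replicate block gave Akh a log2 change of 0.76 and called 0 of the 7 genes. Same-numbered libraries correlated at -0.17, -0.28 and 0.37 in their deviations from set means, so the block was not taken as pairing, and libraries did not each correlate best with their own number. Without 1 library at a time, the log2 change of Kr-h1 ran from -0.26 to 0.0024 (the last without set A replicate 1) and that of Met from -0.13 to 0.012 (the last without set A replicate 3). Of the 6 neighbouring pairs in level order, 0 passed, also with a pseudocount of 0.1, and 2 had ranges that did not overlap.

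Of the 7 genes, the count correlated with the prothoracic gland level was 1, and 0 with the median of that list. Without each library in turn the count was 0 (0 to 0), where 5 libraries cannot give 1 gene of 7 a pass. It was also 0 without set A replicate 1 and set B replicate 2 together, an alternative chosen after seeing the data. In it, 4 libraries cannot give 1 gene of 7 a pass either. With both measures centred on their set means, also chosen after seeing the data, the count was 0. There r kept its sign for all 7 genes, and the 36 orders within sets cannot give 1 gene of 7 a pass. Without set A replicate 1 and set B replicate 2 together, r was -0.92 for gce, 0.99 for Akh and 0.75 for jhamt. In that setting Fpps turned to 0.26 and Kr-h1 to -0.55. Without 1 library at a time, r ran from -0.76 to -0.12 for Fpps, from 0.30 to 0.81 for Kr-h1 and from -0.68 to 0.13 for Met, which was positive without set A replicate 3 (0.13) and without set B replicate 2 (0.11). The cause of these reversals was not tested. Depth limits AkhR, Jhe and Jhedup, which had 0 to 9 counts per library.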
